A study of Sus scrofa with 32 samples.

Results

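PYGM, PFKM and GPD1 are the genes of 3 enzymes, in turn of glycogen breakdown, of glycolysis and of a branch from glycolysis to glycerol 3-phosphate. They were chosen by name from the 25322 gene IDs counted, of which 11804 were paired with a symbol. Their identifiers are ENSSSCG00000013022 for PYGM, ENSSSCG00000021129 for PFKM and ENSSSCG00000000214 for GPD1. Their transcripts were counted by RNA sequencing in a loin muscle, the longissimus dorsi (LD), and a ham muscle, the semimembranosus (S). The pigs were gilts of the Pulawska breed (PUL, n = 8) and the Polish Landrace breed (PL, n = 8). All 16 pigs were untreated females from 1 test station, with the same housing and feed. The labels give each an age of 180 days. The study, however, fed the pigs to a set body weight and treated age at slaughter as a trait that varied. Any difference of age between the breeds cannot be told apart from breed here. Each pig gave 1 LD and 1 S library, so the 32 libraries form the groups PUL LD, PUL S, PL LD and PL S with n = 8 each. The samples are whole muscle pieces, in which fibres of several types, fat, vessels and connective tissue are measured together. In such samples fewer cells of a type and less RNA per cell cannot be told apart. The labels also carry a shear force class, high for PUL and low for PL, which runs against the study's own account of which breed has the more tender pork. The groups here rest on the breed labels alone, and so does the sign of every PL over PUL value.

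PYGM is muscle glycogen phosphorylase, which releases glucose 1-phosphate from glycogen and is the enzyme missing in McArdle disease. PFKM is the muscle form of phosphofructokinase, which phosphorylates fructose 6-phosphate at the committed step of glycolysis. GPD1 is the cytosolic glycerol 3-phosphate dehydrogenase, which takes dihydroxyacetone phosphate out of glycolysis, supplies the glycerol backbone of lipids and, with mitochondrial GPD2, carries reducing equivalents to mitochondria. Fast fibres, which make up most of pig loin and ham, rely on glycogen breakdown and glycolysis for anaerobic work. After slaughter the same route turns stored glycogen into lactate and sets the fall of pH in pork.

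The total expected count was between 8821273 and 24761853 per library. Expression is given as CPM, the count per 1000000 counts of a library after scaling with TMM factors, which ranged from 0.690 to 1.51 while the 10 most abundant genes took 27.3 to 48.9% of a library. The muscle labels were checked with HOX and ZIC genes, which mark position along the body and were chosen after their values were seen. In 15 of 16 pigs HOXA10 was higher in S, between 0.471 and 3.19 CPM against 0 to 0.155 CPM in LD. The library labelled LD of PL pig 14 held 1.10 CPM and the library labelled S of that pig held 0. ZIC1 lay between 1.68 and 7.53 CPM in LD of the other 15 pigs, but at 0.0647 CPM in the library labelled LD and at 2.78 CPM in the library labelled S of PL pig 14. Both libraries of PL pig 14 therefore went against their muscle labels by these genes, and the comparisons and relations of the 3 enzymes are given with and without this pig. The library labelled S of PL pig 8 was also apart, with 3.89 CPM of ZIC1 where the other S libraries outside pig 14 reached 0.763 CPM. General muscle fibre markers were present in every library, with a summed level of 41408 to 171710 CPM. Of the 22 listed hepatocyte markers 19 had a gene ID, and their summed level ran from 9.29 to 1667 CPM in PUL libraries against 11.0 to 35.4 CPM in PL libraries.

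All 3 genes were abundant in every library, and their levels differed far more between the libraries of a group than between the group means. No gene's count was under 5030 in any library, so that low depth does not limit these values. Each gene's counts equalled those of exactly 1 annotated transcript, with a largest difference of 0.01 counts.

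PYGM in PUL LD ranged from 3751 to 18074 CPM with a median of 13949, and its mean was 11852 ± 5932 (SD, n = 8). In PUL S its range was 5984 to 19133 CPM, its median 13694 and its mean 12218 ± 5106 (SD, n = 8). In PL LD it ranged from 6854 to 24462 CPM with a median of 12659 and a mean of 13038 ± 6060 (SD, n = 8), and in PL S from 6882 to 17407 CPM with a median of 10184 and a mean of 11382 ± 4348 (SD, n = 8). The 4 ranges overlapped over most of their length. The LD libraries of PUL pigs 1 and 2 were lowest and the LD library of PL pig 7 was highest. PYGM transcripts made up between 0.563 and 1.70% of the expected counts of a library.

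PFKM was the most variable of the 3 genes. In PUL LD its lowest, median and highest values were 166, 601 and 1623 CPM, and its mean was 769 ± 507 (SD, n = 8), a 9.75-fold span within 1 group. In PUL S they were 291, 841 and 1407 CPM with a mean of 859 ± 423 (SD, n = 8). In PL LD they were 417, 866 and 2034 CPM with a mean of 962 ± 517 (SD, n = 8), and in PL S 499, 724 and 2321 CPM with a mean of 928 ± 576 (SD, n = 8). Here too the groups overlapped. PUL pig 1 was lowest and PUL pig 16 highest in both muscles of that breed. The highest value of all came from the library labelled S of PL pig 14, while the other 7 PL S libraries reached at most 890 CPM.

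GPD1 was the steadiest gene. Its lowest, median and highest values were 1007, 1979 and 2839 CPM in PUL LD, where the mean was 1999 ± 677 (SD, n = 8), and 1310, 2553 and 3266 CPM in PUL S, where the mean was 2348 ± 709 (SD, n = 8). In PL LD they were 1579, 2100 and 3699 CPM with a mean of 2345 ± 744 (SD, n = 8), and in PL S 1602, 2203 and 2899 CPM with a mean of 2211 ± 482 (SD, n = 8). All 4 ranges overlapped. The coefficient of variation within a group was 21.8 to 33.8% for GPD1, 38.2 to 50.1% for PYGM and 49.3 to 66.0% for PFKM. None of the neighbouring groups in the order of the means differed by as much as 1 SD for any of the 3 genes.

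**Figure D1:**
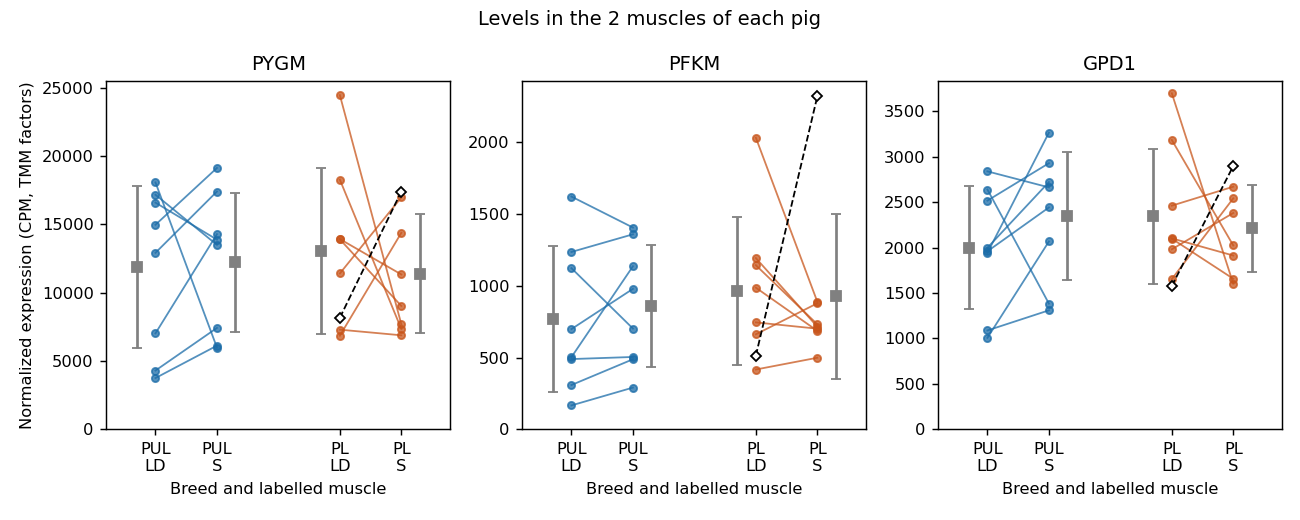
Levels of PYGM, PFKM and GPD1 in CPM (vertical axis, from 0) in the LD and S libraries of 8 PUL (blue) and 8 PL (orange) pigs. Lines join the libraries of a pig, open black diamonds mark PL pig 14, and grey squares with bars give the mean and SD of a group. The lines run up and down in both breeds, and the PFKM level of 2321 CPM in the library labelled S of PL pig 14 stands above the other 7 PL S libraries.

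The first comparison asked whether the enzymes differed between ham and loin of the same pig. PYGM was higher in S in 8 pigs and lower in 8, PFKM was higher in 9 and lower in 7, and GPD1 was higher in 10 and lower in 6. With PL pig 14 set aside, the widest contrasts pointed in opposite directions. PL pig 7 had 24462 CPM of PYGM in LD and 7692 CPM in S, whereas PL pig 10 had 6854 CPM in LD and 14385 CPM in S. For PFKM, PL pig 12 had 2034 CPM in LD and 890 CPM in S, whereas PUL pig 17 had 503 CPM in LD and 1137 CPM in S. The library labelled S of PL pig 14 held 4.52 times the PFKM level of the library labelled LD. For GPD1, PL pig 7 went from 3699 CPM in LD to 1602 CPM in S, and PUL pig 1 from 1007 to 2067 CPM.

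No change of PYGM, PFKM or GPD1 between the muscles passed the test. A gene was called at an adjusted p of at most 0.05 and a fold of at least 1.3, by edgeR's quasi-likelihood test with the pig as a block. Over all pigs 11 of 11563 genes were called, or 0.0951%. In PYGM the log2 fold change of S over LD was 0.00 (SE 0.23, 95% interval -0.48 to 0.49), with a Benjamini-Hochberg adjusted p of 0.998 by edgeR. It was 0.11 (SE 0.20, interval -0.31 to 0.53) for PFKM, with an edgeR adjusted p of 0.981. It was 0.10 (SE 0.16, interval -0.23 to 0.43) for GPD1, with an edgeR adjusted p of 0.977. The intervals leave room for folds above 1.3 in either direction for PYGM, and upward for PFKM and GPD1. Without PL pig 14 the same test called 78 of 11678 genes, or 0.668%, with all 11 earlier genes among them. In that fit none of the 3 enzymes was called, with log2 fold changes of -0.09 for PYGM, -0.03 for PFKM and 0.03 for GPD1 and edgeR adjusted p of 0.894, 0.953 and 0.940. Without PL pigs 8 and 14 the values were -0.09, 0.00 and 0.01. Two-sided exact permutation tests on the 16 paired differences gave p = 0.967 for PYGM, 0.559 for PFKM and 0.545 for GPD1, and on the 15 differences without PL pig 14 exact p of 0.725, 0.968 and 0.780.

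**Figure D2:**
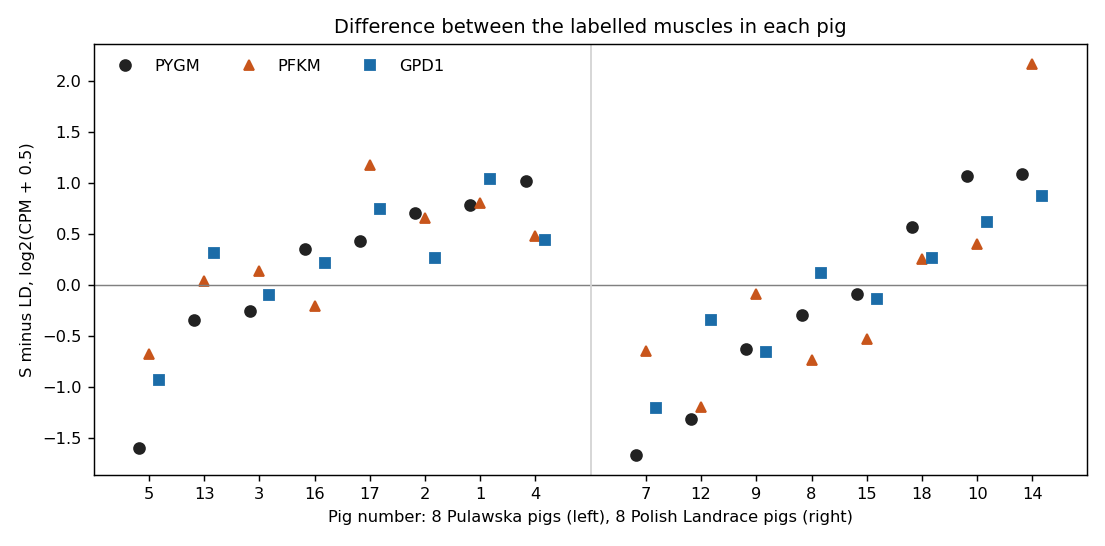
Difference between the libraries labelled S and LD of each pig on the log2(CPM + 0.5) scale (vertical axis) for PYGM, PFKM and GPD1, with the pigs of each breed in order of their PYGM difference (horizontal axis). In most pigs the 3 symbols lie on the same side of 0, and the PFKM value of 2.17 in PL pig 14 is the farthest from 0.

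Within PUL pigs the 3 genes were on average higher in S, and within PL pigs lower, but neither breed gave a call. In PUL the mean paired difference on the log2(CPM + 0.5) scale was 0.14 ± 0.85 (SD, n = 8) for PYGM, 0.30 ± 0.60 for PFKM and 0.25 ± 0.59 for GPD1. PYGM was higher in S in 5 of 8 PUL pigs, and PFKM and GPD1 each in 6 of 8. PUL pig 5 had the lowest difference for all 3 genes. The edgeR log2 fold changes were 0.16 (SE 0.32), 0.30 (SE 0.28) and 0.26 (SE 0.22), with adjusted p of 0.976, 0.894 and 0.885, where 3 genes or 0.0259% were called. Exact permutation tests on the 8 differences, which can reach 0.00781, gave p = 0.680, 0.219 and 0.258. The fit that left out PL pig 14 gave log2 fold changes of 0.16, 0.30 and 0.26 in PUL.

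In PL the mean paired difference was -0.16 ± 1.03 (SD, n = 8) for PYGM, -0.04 ± 1.04 for PFKM and -0.06 ± 0.68 for GPD1. PYGM and PFKM were lower in S in 5 of 8 PL pigs and GPD1 in 4 of 8. The SD of PFKM owed much of its size to PL pig 14, since without it the mean was -0.36 ± 0.58 (SD, n = 7). The edgeR log2 fold changes were -0.15 (SE 0.33) for PYGM, -0.08 (SE 0.29) for PFKM and -0.05 (SE 0.22) for GPD1, each with an adjusted p of 1. No gene was called in PL, or 0%, while 265 genes had an unadjusted p under 0.05 and DESeq2 called 4. Without PL pig 14 they were -0.34 (SE 0.33), -0.36 (SE 0.22) and -0.19 (SE 0.22), with edgeR adjusted p of 0.746, 0.639 and 0.786 and 6 genes called among all tested.

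The difference between the breeds in S over LD was tested directly as an interaction. Its log2 value, PL minus PUL, was -0.31 (SE 0.46, 95% interval -1.28 to 0.66) for PYGM, -0.38 (SE 0.40, interval -1.22 to 0.45) for PFKM and -0.31 (SE 0.32, interval -0.98 to 0.36) for GPD1. All 3 had an edgeR adjusted p of 0.9996, and the call rate over all genes was 0%, with 294 genes at an unadjusted p under 0.05 and 1 gene called by DESeq2. Leaving out PL pig 14 gave -0.49 (SE 0.45), -0.66 (SE 0.30) and -0.44 (SE 0.31). For PFKM the unadjusted p was then 0.0384 by edgeR's quasi-likelihood test and the adjusted p 0.965. So no difference between the breeds in the muscle contrast was detectable for these enzymes.

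The second comparison set PL against PUL in each muscle, as the study did. The study combined edgeR, baySeq and DESeq2 by a rule of its own and reported genes that differed between the breeds in both muscles. The call counts here follow another rule and are not those of the study. In LD the mean of all 3 enzymes was higher in PL by less than the SD of either breed. The edgeR log2 fold changes of PL over PUL in LD were 0.14 (SE 0.36, 95% interval -0.61 to 0.88) for PYGM, 0.32 (SE 0.41, interval -0.53 to 1.17) for PFKM and 0.23 (SE 0.24, interval -0.27 to 0.73) for GPD1. Their adjusted p by edgeR were 0.987, 0.938 and 0.896, and exact permutation tests of 16 pigs gave p = 0.572, 0.321 and 0.318. In LD 0% of 10792 genes were called, with 772 at an unadjusted p under 0.05, while DESeq2 called 19 and edgeR's exact test 13. With PL pig 14 left out the log2 fold changes were 0.20, 0.41 and 0.29. Without PL pig 7 alone, which had the highest PYGM and GPD1 of all libraries, the value for PYGM was -0.06 and that for GPD1 0.11.

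In S no enzyme passed the test either. The log2 fold changes of PL over PUL were -0.10 (SE 0.28, 95% interval -0.70 to 0.50) for PYGM, 0.12 (SE 0.34, interval -0.59 to 0.83) for PFKM and -0.08 (SE 0.20, interval -0.50 to 0.34) for GPD1. The adjusted p by edgeR were 0.910, 0.910 and 0.891, and the exact permutation p 0.838, 0.727 and 0.812. The call rate in S was 0% of 10687 genes, with 1252 at an unadjusted p under 0.05, while DESeq2 called 103 and edgeR's exact test 57. Without PL pig 14 the values were -0.21, -0.22 and -0.15, so that the sign for PFKM turned on the library labelled S of that pig. Over the 18 exact permutation tests of the 3 genes the lowest p was 0.219 and the lowest adjusted p 0.943. Hepatocyte markers moved with breed, as given above, and without PUL pigs 1 to 5, each of which had a library with at least 119 CPM of them where the other PUL libraries reached 67.8 CPM, the values in S were -0.56, -0.13 and -0.38 and none was called. Red blood cell markers, 3 of 7 counted, had median summed levels in LD of 140 (PUL) and 377 (PL) CPM, and in S of 67.2 and 366 CPM. Fibroblast markers, 6 of 7 counted, had medians in LD of 486 (PUL) and 1275 (PL) CPM, and in S of 955 and 1947 CPM. The part of these markers in the values of the enzymes was not tested further.

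**Figure D3:**
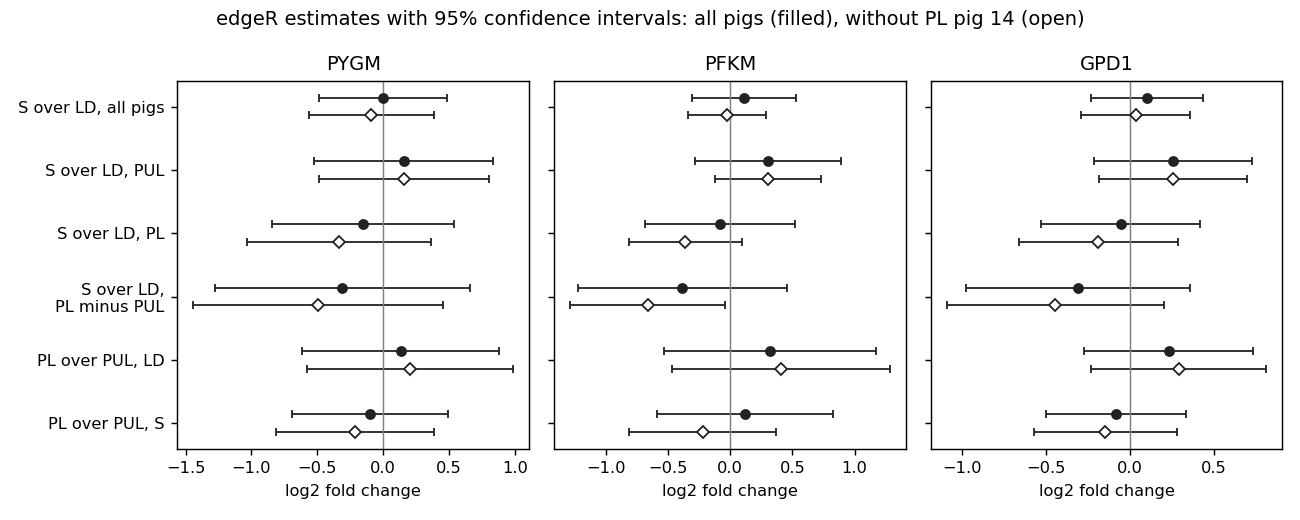
Log2 fold changes of PYGM, PFKM and GPD1 by edgeR (horizontal axis) with 95% confidence intervals in 6 comparisons (vertical axis), with all pigs (filled circles) and without PL pig 14 (open diamonds). All intervals with all pigs include 0. The interval of PFKM for the difference between breeds in S over LD without PL pig 14 runs from -1.29 to -0.04, with an adjusted p of 0.965.

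Although no group contrast separated them, the 3 enzymes moved together from library to library. All 3 were higher in S in 7 pigs, all 3 lower in 5, and they disagreed in direction in 4. By Pearson's r with TMM factors PYGM and GPD1 were the closest pair. Over the 16 pigs Pearson's r of their S minus LD differences was 0.90 and Spearman's rho 0.86, with permutation p of 1e-05, the smallest the permutations can give, and 2e-05. Benjamini-Hochberg adjustment over 18 relations gave 9e-05 and 0.00018. Without the 2 pigs farthest from the median of PYGM r was 0.80, without PL pig 14 it was 0.88, and within the breeds it was 0.85 in PUL and 0.93 in PL. In LD alone r was 0.86 (rho 0.72) and in S alone 0.92 (rho 0.89), with adjusted permutation p of 0.00012 and 9e-05 for r and 0.0048 and 0.00018 for rho, and r without PL pig 14 was 0.86 and 0.91.

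PFKM followed the other genes less closely by Pearson's r with TMM factors. Its S minus LD difference had r = 0.77 and rho = 0.83 with that of PYGM (permutation p 0.00041 and 0.00021, adjusted 0.00105 and 0.000756, n = 16). There r was 0.77 without the 2 pigs farthest from the median of PYGM and 0.78 without PL pig 14. With GPD1 the PFKM difference had r = 0.74 and rho = 0.85 (permutation p 0.0008 and 6e-05, adjusted 0.0016 and 0.00036, n = 16). In that pair r was 0.76 without the 2 pigs farthest from the median of PFKM, which include PL pig 14. It was 0.74 without PL pig 14 alone. Within S libraries r was lower, at 0.56 for PYGM and 0.51 for GPD1 (permutation p 0.0242 and 0.0451, adjusted 0.0363 and 0.0580), with rho of 0.61 and 0.65 (permutation p 0.0144 and 0.00764). When PL pig 14 was left out, r in S was 0.49 and 0.45. Within PL S it was 0.33 and 0.40, and without pig 14 it was -0.42 and -0.25, so that the positive sign in PL S rested on the library of that pig. In LD r of PFKM was 0.71 with PYGM and 0.77 with GPD1 (permutation p 0.00173 and 0.00054), and rho was 0.68 and 0.77 (permutation p 0.00514 and 0.00089). Without the 2 pigs farthest in PYGM r with PYGM was 0.45, and without the 2 farthest in PFKM r with GPD1 was 0.76. The LD relations were weaker in PL. With PYGM r was 0.77 in PUL and 0.56 in PL, and with GPD1 0.94 and 0.38. In PL LD without pig 14 it was 0.49 with PYGM and 0.23 with GPD1.

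The scaling of the libraries bears on these relations. Libraries with a high share of PYGM had a low TMM factor, with r = -0.86 in LD and -0.88 in S between the 2 log2 values (adjusted permutation p 0.00018 and 0.000288, n = 16), and for GPD1 r was -0.57 and -0.78. For PFKM r was -0.39 in both muscles, with adjusted permutation p of 0.155. Spearman's coefficient was -0.81 and -0.80 for PYGM, -0.48 and -0.82 for GPD1 and -0.30 and -0.42 for PFKM. The factor is computed from the composition of the same libraries, so both sides share counts. With library size alone in place of TMM factors, r of the S minus LD differences was 0.70 for PYGM with GPD1, 0.58 for PYGM with PFKM and 0.55 for PFKM with GPD1. In S libraries on that scale PFKM had r = 0.37 with PYGM and 0.27 with GPD1, and PYGM had 0.81 with GPD1. In LD libraries r was 0.58 for PYGM with GPD1 and 0.55 for PYGM with PFKM. There PFKM with GPD1 was the closest pair, at 0.67.

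**Figure D4:**
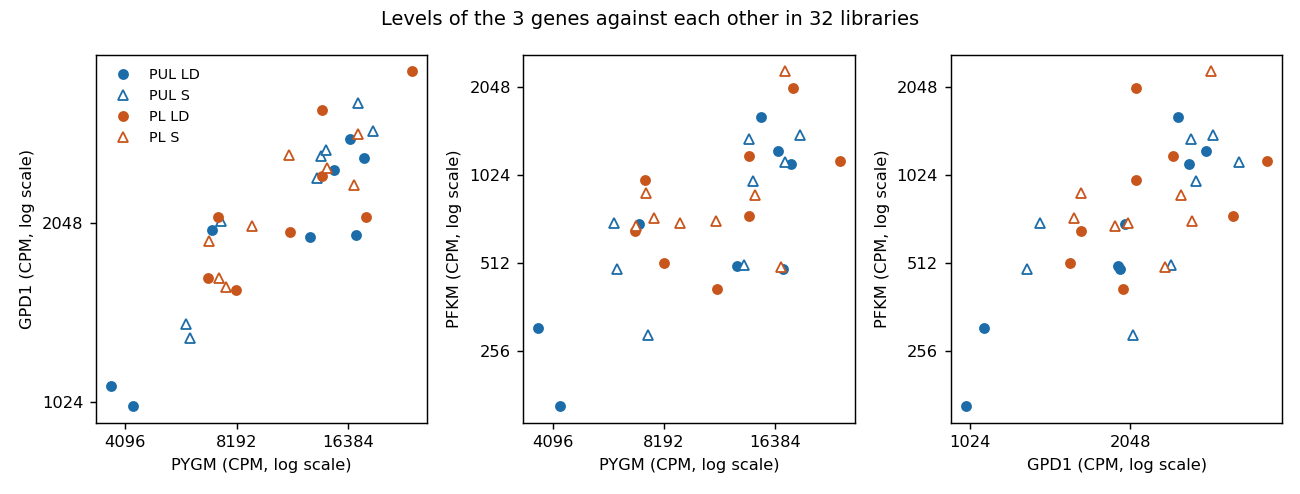
Levels of PYGM, PFKM and GPD1 against each other in the 32 libraries, in CPM on log axes, with LD as filled circles, S as open triangles, PUL in blue and PL in orange. PYGM and GPD1 form the narrowest band, and symbols of all 4 groups lie along most of its length. Its lowest end holds the LD libraries of PUL pigs 1 and 2, and its highest end the LD library of PL pig 7.

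Over all 16 pigs the levels of PYGM and GPD1 in LD said little of those in S. For PYGM r between LD and S over 16 pigs was 0.13 and rho -0.09, and for GPD1 0.03 and -0.16, with permutation p from 0.550 to 0.918, and r without PL pig 14 was 0.18 and 0.09. Within the breeds the signs were opposite, with r of 0.48 in PUL and -0.47 in PL for PYGM, and 0.38 and -0.63 for GPD1. In PL without pig 14 r was -0.37 for PYGM and -0.50 for GPD1. Without the 2 of the 16 pigs farthest from the LD median of the gene itself it was -0.34 and -0.48. For PFKM r was 0.51 and rho 0.56 (permutation p 0.0436 and 0.0265, adjusted 0.0580 and 0.0366). It was 0.30 without the 2 farthest pigs, 0.73 without PL pig 14, 0.85 within PUL, -0.13 within PL, and 0.68 within PL without pig 14. With the breed means removed r was 0.14 for PYGM, 0.05 for GPD1 and 0.51 for PFKM, against a median of 0.19 over all tested genes. The SD of the S minus LD difference was 0.91 for PYGM, 0.82 for PFKM and 0.61 for GPD1 on the log2 scale, against a median of 0.54 over all tested genes.

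The isozymes of other tissues were also counted. PYGB, the brain form of phosphorylase, had at most 0.393 CPM in any library and was not tested. PYGL, the liver form, ranged from 2.49 to 24.1 CPM, with means of 6.75 ± 2.97 (SD, n = 8) in PUL LD and 11.2 ± 6.01 in PL LD, and its log2 fold change of PL over PUL was 0.72 in LD and 0.58 in S (unadjusted p 0.0378 and 0.0257, edgeR adjusted p 0.663 and 0.374). PFKL, the liver form of phosphofructokinase, lay between 2.90 and 11.7 CPM and had log2 fold changes of PL over PUL of -0.49 in LD and -0.37 in S (edgeR adjusted p 0.711 and 0.421). PFKP, the platelet form, reached 3.38 CPM. Neither passed the test in any comparison. GPD1L, a related dehydrogenase, lay between 24.2 and 57.0 CPM, and GPD2, the mitochondrial partner of GPD1, between 35.7 and 181 CPM. Their log2 fold changes of S over LD were -0.14 and 0.03 (edgeR adjusted p 0.901 and 0.992), and those of PL over PUL did not pass the test in either muscle.

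The rest of the pathway was followed with 96 further genes in 7 lists, of which 71 were tested in S over LD and 68 between the breeds. None was called in any comparison with all pigs, next to 0.0951% of all genes in S over LD over all pigs, and 5 of the 71 had an unadjusted p under 0.05. The median log2 fold change of S over LD was 0.03 in these genes and -0.01 in all genes. In the glycolysis list, which here includes PFKM, 10 of 22 tested genes had a positive S over LD estimate with a median of -0.00, and with RLE factors 16 of 22 with a median of 0.01. Between the breeds in LD 16 of its 21 tested genes had a positive PL over PUL estimate, with a median of 0.21 against 0.01 for all genes, or 0.09 against -0.18 with library size alone. In S the median was -0.08 against 0.02 for all genes, and with library size alone 0.01 against 0.07. The list's median of S over LD was 0.20 in PUL and -0.09 in PL with all pigs, and 0.18 and -0.22 when PL pig 14 was left out, against medians of -0.01 to -0.00 for all genes. With library size alone and that pig left out it was 0.06 and -0.05, against -0.13 and 0.16 for all genes. In the glycogen breakdown list, PYGM included, 7 of 11 tested genes had a positive S over LD estimate with a median of 0.02, and in the list of glycogen synthesis 5 of 11 with a median of -0.03. In the list of the glycerol phosphate and malate-aspartate shuttles, GPD1 included, it was 7 of 8 with a median of 0.12, and none of these lists held a call.

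A single listed gene passed the test in S over LD over all pigs once PL pig 14 was left out, 1 of 72 tested or 1.39%, against 0.668% of all genes in the same fit. PRKAG2, named after its values were seen, is a regulatory subunit of the AMP-activated protein kinase, which senses low energy charge. It had 10.196 ± 3.77 CPM in PUL LD, 16.8 ± 6.24 in PUL S, 12.95 ± 4.13 in PL LD and 18.7 ± 5.40 in PL S (SD, n = 8 each). Its level was higher in S in 14 of 16 pigs, the exceptions being PUL pig 1 and PL pig 14, whose library labelled LD held 20.5 CPM and whose library labelled S held 9.76 CPM. The fold of S over LD was 1.57 with all pigs (edgeR adjusted p 0.211), 1.68 without PL pig 14 (edgeR adjusted p 0.00611) and 1.65 without PL pigs 8 and 14 (edgeR adjusted p 0.0136).

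The genes whose level was most like each enzyme were found by Pearson's r over the 32 libraries with the group means removed, among 7900 named genes tested. These values are descriptions, since the libraries share their scaling and 2 come from each pig. For PYGM they were GPI, the glucose 6-phosphate isomerase of glycolysis, with r = 0.94, DNAJC7, a co-chaperone, with 0.93, ENO3, muscle enolase, with 0.93, MYBPC2, the fast myosin binding protein C, with 0.93, and EFCAB7, an EF-hand protein, with 0.91. With library size alone these 5 values ran from 0.80 to 0.89. For GPD1 they were CARNS1, which makes carnosine, with 0.94, CACNB1, a subunit of the muscle calcium channel, with 0.91, MYBPC2 with 0.90, COPS7A, of the COP9 signalosome, with 0.90 and RABGGTA, of the Rab prenylation enzyme, with 0.89, and with library size alone from 0.73 to 0.87. For PFKM they were KY, a muscle protein of the Z-disc, with 0.87, ARIH2, a ubiquitin ligase, with 0.87, the transcription factor NFIX with 0.87, the growth factor EGF with 0.86 and the solute carrier SLC41A3 with 0.86, and with library size alone from 0.82 to 0.86. PFKM had no gene in common with the other lists, while MYBPC2 stood in those of PYGM and GPD1. With PL pig 14 left out the r of these genes lay between 0.91 and 0.94 for PYGM, 0.88 and 0.94 for GPD1 and 0.83 and 0.86 for PFKM.

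For PYGM and GPD1 glycolysis had the highest median r of the 7 pathway lists, and for PFKM glycogen breakdown had. Of 22 other tested glycolysis genes 12 had r over 0.5 with PYGM, or 54.5% against 10.4% of all tested genes, with a median r of 0.67. For GPD1 it was 13 of 22, or 59.1% against 9.37%, with a median of 0.69, and for PFKM 12 of 21, or 57.1% against 14.5%, with a median of 0.56. In glycogen breakdown 7 of 11 tested genes had r over 0.5 with PFKM, or 63.6%, with a median of 0.63. Among the 100 tested genes of highest mean CPM the share with r over 0.5 was 36.4% for PYGM, 33.3% for GPD1 and 30% for PFKM. When PL pig 14 was left out the medians of glycolysis were 0.67 for PYGM, 0.69 for GPD1 and 0.57 for PFKM. TPI1 had r = 0.91 with PYGM, PKM 0.90, PGAM2 0.88, PGK1 0.85, GAPDH 0.83 and LDHA 0.79, each with a mean of at least 3552 CPM. Other listed genes had far lower means. Of these HK1 and HK2, forms of the first enzyme of the pathway, had -0.28 (mean 8.47 CPM) and -0.10 (4.59 CPM). PGAM1, the non-muscle form of the mutase, had -0.35 (6.34 CPM), while PFKFB1 had 0.74 (5.37 CPM). With library size alone the medians of the list were 0.49 for PYGM, 0.51 for GPD1 and 0.42 for PFKM, against -0.40, -0.29 and -0.22 for all tested genes. Glycogen synthesis was less alike, with a median r of 0.07 for PYGM. In it glycogen synthase GYS1 had 0.80, at a mean of 211 CPM. The branching enzyme GBE1 had -0.44, at a mean of only 1.57 CPM and with 0 CPM in its lowest PUL LD library.

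**Figure D5:**
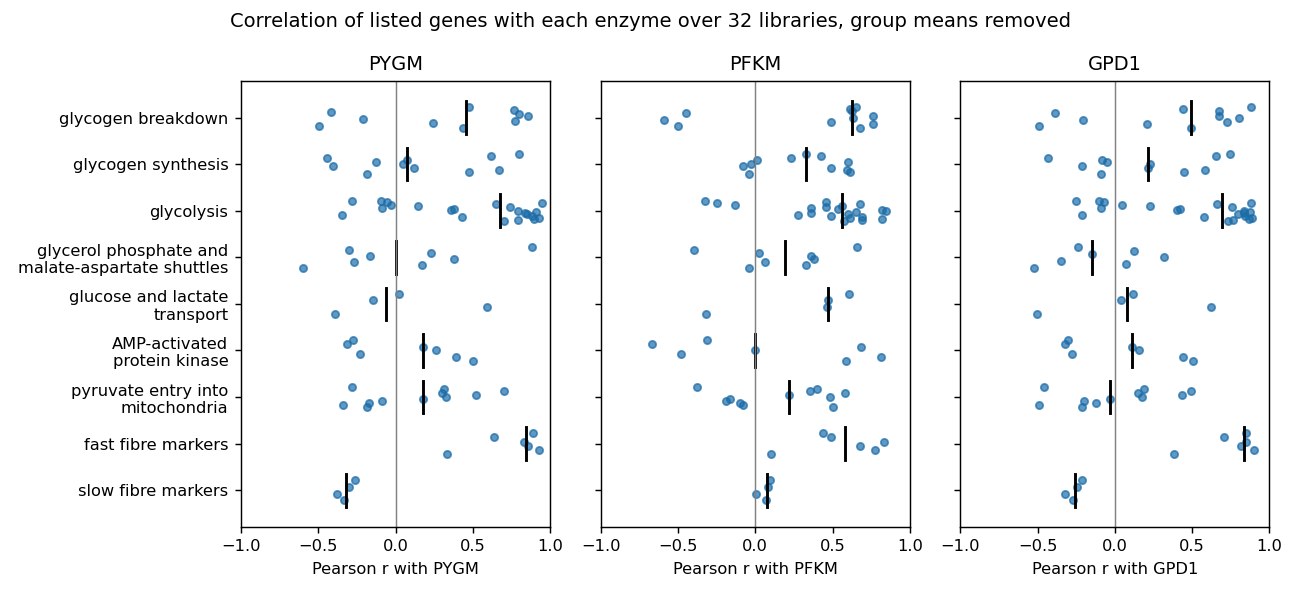
Pearson's r (horizontal axis) of each tested gene of 7 pathway lists and 2 fibre marker lists (vertical axis) with PYGM, PFKM and GPD1, over 32 libraries with group means removed. Each point is a gene and each black bar a list's median, which for PYGM is 0.67 in glycolysis, 0.84 in the fast fibre markers and -0.32 in the slow fibre markers.

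Markers of fibre types and other cells moved with the enzymes to different degrees. Of 13 listed fast fibre markers 6 were counted, and 5 of them had r over 0.5 with PYGM and with GPD1, with medians of 0.84 and 0.83 and, with library size alone, 0.71 and 0.61. For PFKM 3 of 6 did, with a median of 0.58 and, with library size alone, 0.38. Their summed level ranged from 28293 to 100507 CPM in PUL LD, from 45900 to 116305 in PUL S, from 55769 to 128831 in PL LD and from 46032 to 97744 in PL S, and the lowest and the highest of these were PUL pig 1 and PL pig 7 in LD. The 4 slow fibre markers that were counted had a median r of -0.32 with PYGM, -0.26 with GPD1 and 0.08 with PFKM. The 5 general muscle fibre markers tested had a median r of 0.11 with PYGM and 0.13 with GPD1, with 2 of 5 over 0.5 for each. Among them ACTA1 had 0.84 and 0.82, while MYOT had -0.43 and -0.48. The 6 endothelial and 4 leukocyte markers tested had a median r of -0.40 and -0.43 with PYGM. Adipocytes and hepatocytes also express GPD1. The summed level of 6 of 12 adipocyte markers was 41.5 to 351 CPM with a median r of 0.25 with GPD1, and the 15 tested hepatocyte markers had a median r of -0.35 with GPD1 and -0.45 with PYGM. The part of these cells and fibres in the levels of the 3 enzymes was not tested.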

How the data were processed

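RNA depleted of ribosomal RNA from LD and S of 16 gilts was sequenced in 32 libraries. The authors filtered reads with Flexbar, used Bowtie 2 for alignment to the Sscrofa10.2 genome, and ran RSEM, which divides reads of several possible origins among transcripts. What was deposited are expected counts from RSEM for genes and for transcripts, with no scaling for depth. Whether strand was used in counting is not given in the sources used here. The submitters' processing notes also name CASAVA 1.8.2, FastQC, edgeR and DESeq2. Symbols came from a table of gene names. No sequence or coordinate is given, since no genome of this build was used here. Listed genes with no ID were not analysed here.

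After rounding, the expected counts were fitted with edgeR 4.0.16 in R 4.3.3, using TMM factors, filterByExpr, the quasi-likelihood test and Benjamini-Hochberg adjustment over all tested genes, with DESeq2 1.42.0 as an alternative. Calls needed an adjusted p of at most 0.05 and a fold of at least 1.3. S over LD and its difference between breeds were fitted over 32 libraries with the pig as a block, and breeds were compared within each muscle. Standard errors came from the F statistic, and intervals are at 95%. Single genes were also compared by exact two-sided permutation tests on log2(CPM + 0.5). The fits were also run on simulated counts with known changes. These were drawn with no effect of the pig, so that run did not test the pairing. Both libraries of a pig carry its number in the labels, which is the pairing used. The deviations of the 2 libraries of a pig from their group means correlated at a median of 0.20 (-0.52 to 0.69), and 4 of 16 pigs had libraries that matched each other best. All pairs of libraries within a group differed beyond sampling noise (lowest chi-square per degree of freedom 38.9). Beside the 3 enzymes the text names their isozymes, the listed pathway genes called, and the 5 most correlated genes of each. PRKAG2, the HOX and ZIC genes and the single genes given with an r within a list were named after their values were seen. Members, lists and tests were chosen with earlier results of these data known. The alternatives were RLE factors, library size alone, DESeq2, other filters, no fold minimum, robust dispersion, other blocks, other sets of libraries in the fit, edgeR's exact test, a pseudocount of 1 CPM and leaving out each pig. Leaving out PUL pigs 1 to 5, the 3 pigs with the most extreme TMM factors, or PL pigs 8 and 14 was chosen after the data were seen.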

Additional observations from a re-analysis of the deposited data

Results flagged for a closer look

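In 1 of the 12 groups examined, 3 genes in 4 groups, the highest library stood far from the others. The PFKM level of the library labelled S of PL pig 14 was 2321 CPM, and its gap to the next library was 0.785 of the range of the 8 PL S libraries. The limit used for such a gap marks about 1 in 20 groups by chance. Both libraries of this pig also went against their muscle labels by HOX and ZIC genes, and whether that bears on the PFKM level was not tested.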

How the results depend on the processing

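No alternative called PYGM, PFKM or GPD1 in any of the 6 comparisons. Of their 504 values 42 changed sign. In the values below S/LD is S over LD and PL/PUL is PL over PUL. With library size alone the value was -0.0086 for PYGM in S/LD over all pigs, 0.051 for PFKM and 0.057 for GPD1 in S/LD of PL, and -0.0048 for PYGM in PL/PUL of LD. With it the median of all genes in the difference between breeds of S/LD was 0.25, against 0.01 with TMM factors (0.30 against 0.01 without PL pig 14). Without the replicate block (the pig, which pairs the libraries) PYGM in S/LD over all pigs was -0.076. The titles' replicate number as a block in PL/PUL changed no call of the 3 genes, with PFKM in LD at 0.43. Libraries of both breeds with the same title number correlated over 0.1 in 6 of 8 cases in LD and 2 of 8 in S. No value for libraries of different numbers was set beside these. They therefore do not settle whether the title numbers pair the breeds. Without PUL pigs 1 to 5 PYGM was -0.0020 in S/LD over all pigs and -0.20 in PL/PUL of LD, and PFKM was -0.13 in PL/PUL of S. Without PL pigs 8 and 14 PYGM was -0.093 in S/LD over all pigs and PFKM was -0.23 in PL/PUL of S. Without the 3 pigs of extreme TMM factors PYGM was -0.031 in S/LD of PUL, 0.086 in S/LD of PL, 0.12 in the difference between breeds and -0.34 in PL/PUL of LD, PFKM was 0.035 in S/LD of PL, -0.011 in PL/PUL of LD and -0.088 in PL/PUL of S, and GPD1 was 0.13 in S/LD of PL and -0.11 in PL/PUL of LD. Leaving out each pig in turn, S/LD over all pigs ranged from -0.089 to 0.12 for PYGM and from -0.028 to 0.19 for PFKM. S/LD of PL then ranged from -0.34 to 0.063 for PYGM, -0.36 to 0.084 for PFKM and -0.19 to 0.11 for GPD1. PYGM in S/LD of PUL ranged from 0.029 (without PUL pig 4) to 0.39 (without PUL pig 5). PL/PUL of LD ranged from -0.058 to 0.25 for PYGM and from 0.085 (without PL pig 12) to 0.57 (without PUL pig 16) for PFKM, and PL/PUL of S from -0.21 to 0.015 for PYGM, -0.22 to 0.25 for PFKM and -0.17 to 0.0014 for GPD1.

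Counts of called genes moved more. DESeq2 called 65 genes in S/LD over all pigs, 79 in PUL, 4 in PL, 1 in the difference between breeds, 19 in PL/PUL of LD and 103 in S. In S/LD over all pigs 0 genes were called with at least 10 counts in every library, 0 without PUL pigs 1 to 5, 0 without the 3 pigs of extreme TMM factors, 89 without PL pigs 8 and 14, and 4 (without PL pig 7) to 78 (without PL pig 14) with each pig left out. In S/LD of PUL the count was 6 with library size alone, 8 with no filter, 10 without the block, 7 with the PUL libraries alone, 22 without PL pigs 8 and 14, 0 under the stricter filter and each of the other 2 sets of pigs, and 0 to 21 with each pig left out. In S/LD of PL it was 12 without PL pigs 8 and 14 and 0 to 6 with each pig left out. In PL/PUL of LD it was 4 with no filter, 6 with both muscles in one fit, 13 with edgeR's exact test, 1 without PUL pigs 1 to 5, 2 without PL pigs 8 and 14 and 0 to 1 with each pig left out. In PL/PUL of S it was 1 with RLE factors, 4 with no filter, 70 with both muscles in one fit, 57 with the exact test, 1 without PUL pigs 1 to 5 and without the 3 pigs, 2 without PL pigs 8 and 14 and 0 to 1 with each pig left out. The causes were not tested.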
